A study of Homo sapiens with 8 samples.

Results

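The 10 chemokine genes described here were CXCL9, CXCL10 and CXCL11, whose transcription is driven mainly by interferon, CXCL1, CXCL2, CXCL3, CXCL8, CCL2 and CCL5, which are classical NF-κB targets, and CCL20. They were chosen by name, with no threshold on a measured value, from the 20033 protein-coding genes of the GENCODE annotation. Their promoters were searched for H3K4me3, the trimethylation of histone H3 at lysine 4 that marks active promoters. The question was which chemokine promoters carried the mark under interferon gamma (IFNγ), and whether its extent differed between wild type (WT) clones and clones with ZBTB48 knocked out (KO). ZBTB48 is a zinc finger protein that binds telomeric repeats and some gene promoters.

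The cells were U2OS, a human osteosarcoma line. All 6 clones, 3 WT and 3 ZBTB48 KO, received 250 U/ml IFNγ for 24 h by their labels (a caption of the study gives a longer time for tracks that include H3K4me3), and each clone gave 1 H3K4me3 ChIP-seq library with a broad peak list of its own. The KO clones were described in an earlier study. With 1 library per clone, differences between clones and between libraries cannot be told apart. Of the 8 samples, 2 were WT inputs and are not used here. All 6 libraries came from treated cells, so no value below shows a response to IFNγ. The comparison is between genotypes under the treatment that both share.

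Chemokines are small secreted proteins that guide migrating leukocytes through receptors on their surface. CXCL9, CXCL10 and CXCL11 bind CXCR3 on activated T cells and natural killer cells, and IFNγ raises their transcription through GAS elements and through IRF proteins at interferon-stimulated response elements (ISRE). CXCL1, CXCL2, CXCL3 and CXCL8 attract neutrophils through CXCR2, CCL2 attracts monocytes through CCR2, CCL5 attracts T cells and monocytes, and CCL20 is the ligand of CCR6. NF-κB, the transcription factor activated by inflammatory cytokines, drives the latter genes and also contributes at several promoters of the interferon-driven trio.

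The promoter sequences of the trio and of CXCL1, CXCL2 and CXCL3 are shown because the first set differs in its motifs while the second set is near-identical around its NF-κB element and differed in the mark. Each line gives the 250 bases upstream of where the MANE Select transcript (the single reference transcript of a gene) begins, its 5′ end, 5′ to 3′ on the gene's own strand, from hg38. Capitals mark matches to the 10-letter NF-κB (κB) consensus, to the ISRE core GAAANNGAA and to the GAS element TTCNNNGAA, searched on both strands. The positions are chr4:76007510-76007759, chr4:76023498-76023747, chr4:76036071-76036320, chr4:74099196-74099445 and chr4:74038690-74038939 on the minus strand and chr4:73869143-73869392 on the plus strand.
CXCL9: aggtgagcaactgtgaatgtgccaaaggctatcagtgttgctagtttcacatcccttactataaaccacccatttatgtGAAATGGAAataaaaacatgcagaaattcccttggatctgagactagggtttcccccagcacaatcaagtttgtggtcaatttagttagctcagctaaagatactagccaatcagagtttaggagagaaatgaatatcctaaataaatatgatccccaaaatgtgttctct
CXCL10: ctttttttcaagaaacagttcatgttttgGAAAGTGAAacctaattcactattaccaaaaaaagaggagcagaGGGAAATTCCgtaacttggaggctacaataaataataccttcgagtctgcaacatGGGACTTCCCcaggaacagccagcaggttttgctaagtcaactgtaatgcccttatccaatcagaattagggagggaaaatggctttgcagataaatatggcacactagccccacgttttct
CXCL11: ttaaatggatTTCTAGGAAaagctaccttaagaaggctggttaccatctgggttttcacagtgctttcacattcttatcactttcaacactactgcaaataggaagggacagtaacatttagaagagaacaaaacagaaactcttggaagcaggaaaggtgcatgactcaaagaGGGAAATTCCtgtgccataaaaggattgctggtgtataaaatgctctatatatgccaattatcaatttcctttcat
CXCL1: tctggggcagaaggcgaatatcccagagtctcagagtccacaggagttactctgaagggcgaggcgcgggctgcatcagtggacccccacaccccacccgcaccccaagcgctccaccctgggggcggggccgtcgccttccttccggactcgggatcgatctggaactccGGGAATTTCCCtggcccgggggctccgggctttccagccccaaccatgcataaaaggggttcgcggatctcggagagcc
CXCL2: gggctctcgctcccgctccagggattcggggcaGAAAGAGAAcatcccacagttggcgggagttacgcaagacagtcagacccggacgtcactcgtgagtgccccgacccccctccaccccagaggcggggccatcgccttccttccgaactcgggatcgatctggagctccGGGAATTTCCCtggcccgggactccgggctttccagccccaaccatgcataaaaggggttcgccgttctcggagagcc
CXCL3: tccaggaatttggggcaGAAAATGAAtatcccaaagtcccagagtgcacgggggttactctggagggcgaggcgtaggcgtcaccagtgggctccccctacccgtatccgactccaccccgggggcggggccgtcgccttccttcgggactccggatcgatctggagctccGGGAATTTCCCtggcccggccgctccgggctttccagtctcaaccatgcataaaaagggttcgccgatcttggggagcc

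The RefSeq promoter table (GRCh38) held 8 of the 10 members, and their 5′ ends there were those used here. CCL2 and CCL5 are named without sequence. In CXCL9 the only match among these 3 motifs was an ISRE core at −171, counted in bases from the 5′ end. CXCL10 carried an ISRE core at −221 and κB matches at −177 and −122, and CXCL11 a GAS match at −240 and a κB match at −76. CXCL2 and CXCL3 also carried an ISRE core, at −217 and −233. The shorter string GGAATTTCC, which overlaps the κB consensus, was read on either strand in 6 of the 8 members with sequence (CXCL10, CXCL11, CXCL1, CXCL2, CXCL3 and CXCL8). It occurs in 72 of 20031 promoters of the same length, or 0.359%. The κB consensus was held by 11.3% of them, the ISRE core by 6.15% and the GAS element by 5.67%. CXCL1 and CXCL3 were identical at 81.4% of aligned positions over these 250 bases, CXCL2 and CXCL3 at 73.3%, and CXCL1 and CXCL2 at 68.0%. Within the trio identity was 45.5 to 52.0%. A match is a string in the sequence and was not tested as a binding site.

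The value for each gene and library was the covered length, the number of bp under peaks between 3 kb upstream and 3 kb downstream of the 5′ end. A peak list holds no read counts, so depth is unknown here, and a missing peak means that none passed the threshold of that list. The 6 lists held 21712 to 26370 peaks and had a peak at 68.4 to 69.9% of all promoters. They were of differing kinds. The median peak of WT replicates 1 and 2 had a deposited fold enrichment over background of 13.4 and 14 and a width of 2297 and 2353 bp. In WT replicate 3 and the 3 KO lists the same medians lay between 4.19 and 4.65, and between 1275 and 1487 bp. WT replicate 3 is therefore compared with the KO libraries on its own wherever a member differed by genotype, and the part of this split in each difference was not tested. Of the markers of mesenchymal cells, 5 of 6 had a peak in all 6 libraries (COL1A2 had none), and none of 6 leukocyte markers had one in any library. Among epithelial and endothelial markers, EPCAM had a peak in all 6 libraries and PECAM1 in WT replicates 1 and 2, while CDH1 and CDH5 had none.

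Of the 10 chemokine genes, 6 had a peak in at least 1 library, against 72.0% of all protein-coding promoters. CXCL3, CCL2 and CCL20 had one in all 6 libraries, against 66.9% of all promoters. CXCL10, CXCL11 and CXCL8 had one in 1 to 5 libraries, a class that held 5.11% of all promoters. CXCL9, CXCL1, CXCL2 and CCL5 had none in any library, as did 28.0% of all promoters. Each library marked 3 to 6 of the 10 genes. There were 4, 6 and 5 in WT replicates 1, 2 and 3 and 4, 5 and 3 in KO replicates 1, 2 and 3, or 5 ± 1 (SD, n = 3) against 4 ± 1 (SD, n = 3), so the genotypes overlapped. The interferon-driven trio had 0, 2 and 1 marked genes in the WT libraries and 0, 1 and 0 in the KO libraries. The 6 NF-κB-driven genes had 3 in every WT library and 3, 3 and 2 in the KO libraries.

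**Figure D1:**
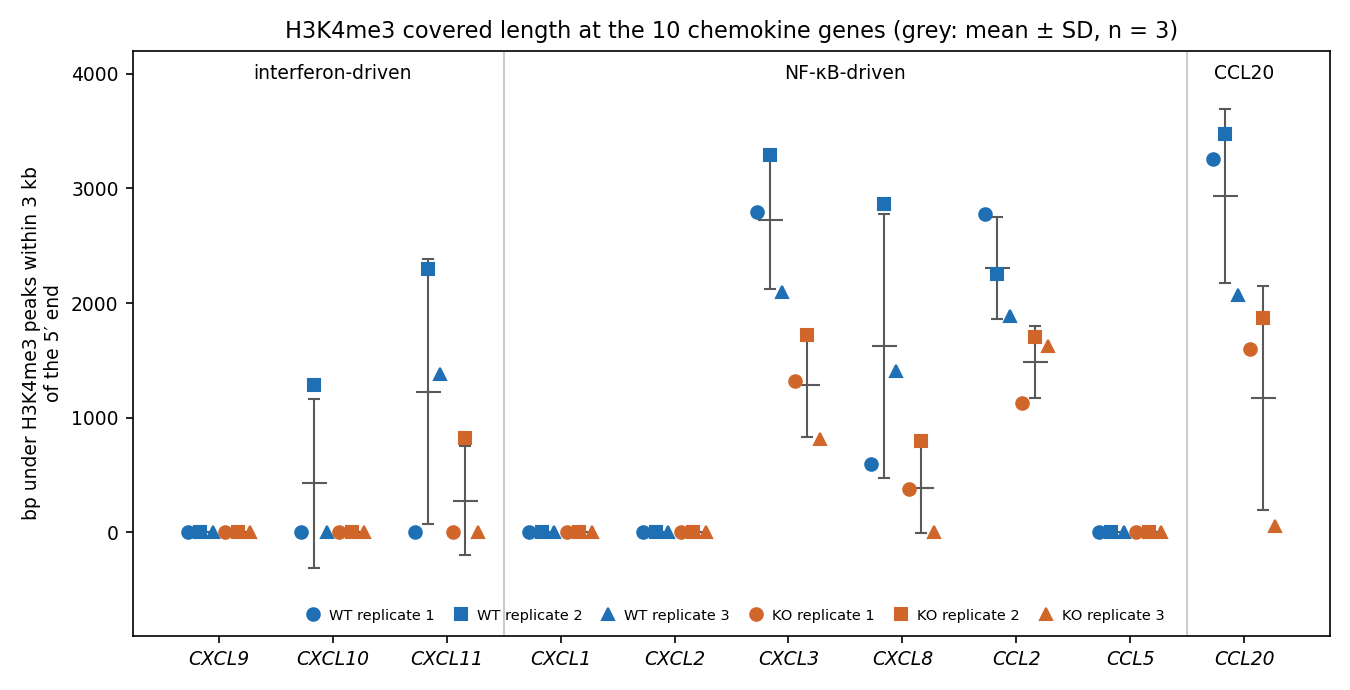
H3K4me3 covered length in bp within 3 kb of the 5′ end (vertical axis) for the 10 chemokine genes (horizontal axis) in each of the 3 WT (blue) and 3 KO (orange) libraries, with grey bars for the mean ± SD. CXCL9, CXCL1, CXCL2 and CCL5 sit at 0 in every library, and at CXCL3, CCL2 and CCL20 every WT point lies above every KO point.

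The interferon-driven genes lie side by side on chromosome 4, all on the minus strand. CXCL9 (ENSG00000138755, chr4:76001275-76007509, 5′ end at 76007509) had 0 bp under peaks in all 6 libraries. In 5 libraries its nearest peak was that at the promoter of SDAD1, a neighbouring gene, 15312 to 15903 bp away, and in WT replicate 2 it was the peak of CXCL10 at 14375 bp. No list called any mark at CXCL9, at the depth and threshold of each.

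CXCL10 (ENSG00000169245, chr4:76021118-76023497) had 1282 bp under peaks in WT replicate 2 and 0 bp in the other 5 libraries. That peak ran from 332 to 1613 bp downstream of the 5′ end and so lay inside the transcribed region, short of the 5′ end itself. Its fold enrichment was 3.29 and its −log10 q was 3.35, above 12.8% and 11.2% of the peaks in that list. The genotypes overlapped at 0 bp. The WT libraries averaged 427 ± 740 bp (SD, n = 3) and every KO library was at 0 (two-sided exact permutation p = 1). The difference rested on WT replicate 2, and was 0 bp without it. This test cannot give a p under 0.1 with 3 libraries a group, so no difference between genotypes could pass 0.05 for any gene.

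CXCL11 (ENSG00000169248, chr4:76033682-76041415, 5′ end at 76036070) had the most called length of the trio. Its covered length was 0, 2296 and 1382 bp in WT replicates 1, 2 and 3 and 0, 823 and 0 bp in KO replicates 1, 2 and 3. The peak of WT replicate 2 ran from −286 to 2009 bp around the 5′ end and that of WT replicate 3 from −77 to 1304 bp, whereas that of KO replicate 2 began 84 bp downstream and ended at 906 bp. Both WT peaks thus held the 5′ end and the KO peak did not. All were weak within their lists, with −log10 q of 7.69, 2.58 and 2.2, above 22.6%, 9.62% and 5.82% of the peaks there. The WT mean was 1226 ± 1156 bp and the KO mean 274 ± 475 bp (SD, n = 3 each), and their difference of 952 bp was within the spread of the libraries (exact permutation p = 0.4). It was 417 bp without WT replicate 2 and 1565 bp without WT replicate 1.

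An upstream 5′ end annotated for CXCL11, 5345 bp before the main one, lay under no peak. A small peak of 276 to 527 bp stood between 713 and 1239 bp upstream of it in 3 libraries, WT replicates 2 and 3 along with KO replicate 1. CXCL10 and CXCL11 both lie within ART3, a gene on the plus strand, and the ChIP signal carries no strand, so the peaks at these positions cannot be assigned to either gene by strand. Over the region from 20 kb before CXCL9 to 20 kb after CXCL11, 68561 bp in all, the lists held 1, 4 and 4 peaks in WT and 2, 2 and 1 in KO. The one peak that all 6 shared was at SDAD1, with −log10 q between 35.8 and 139.

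**Figure D2:**
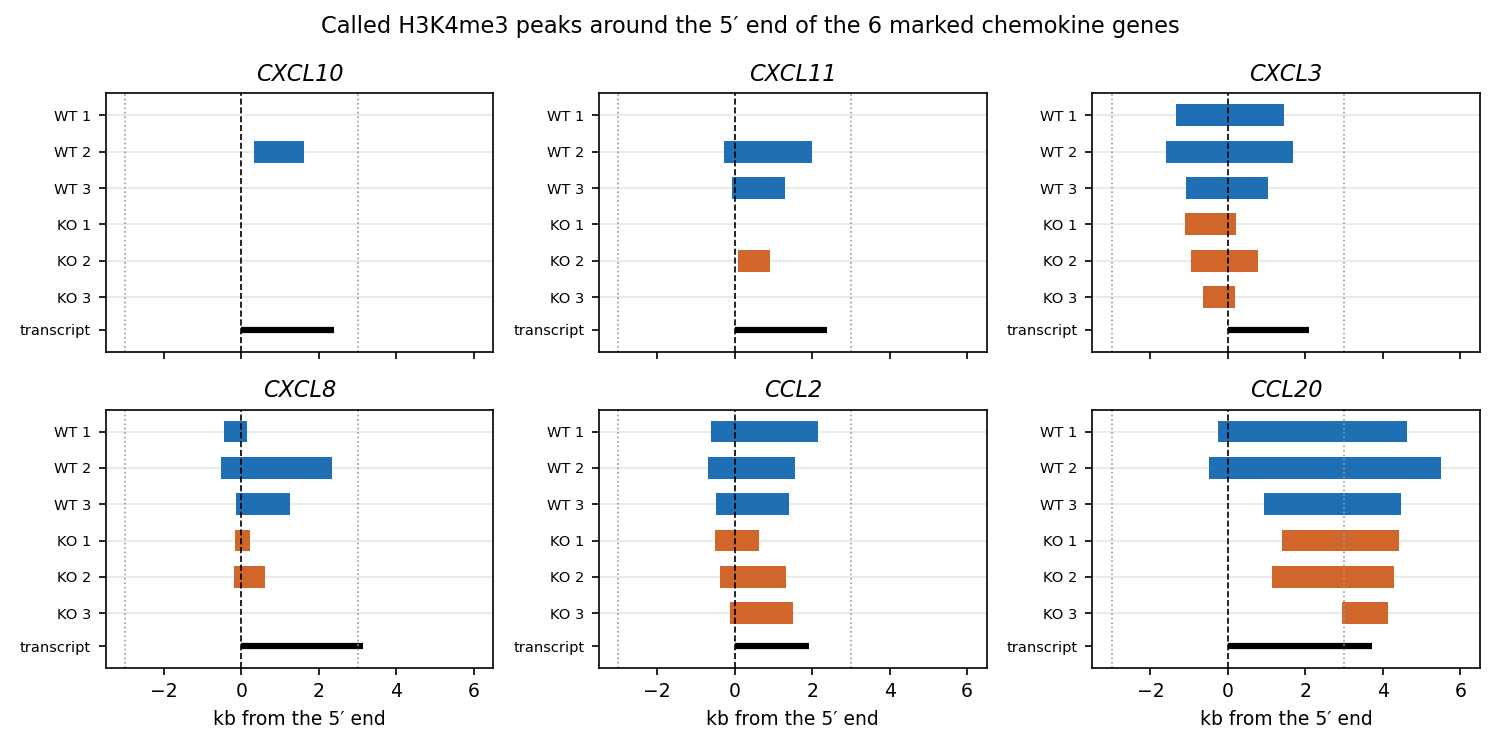
Position of each called H3K4me3 peak, in kb from the 5′ end (horizontal axis, dashed line at 0, dotted lines at the 3 kb limits), in the 3 WT (blue) and 3 KO (orange) libraries for the 6 marked chemokine genes, with the main transcript in black. CXCL3 is covered across its 5′ end in all 6 libraries, the peaks at CCL20 lie over the gene body and past its end, and the peaks at CXCL10 and CXCL11 lie mostly downstream of the 5′ end.

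Among the NF-κB-driven genes, CXCL3 had the peak of highest fold enrichment in every list, and its close relatives CXCL1 and CXCL2 were unmarked. CXCL3 (ENSG00000163734, chr4:74036589-74038807, minus strand) had 2790, 3291 and 2094 bp in WT replicates 1, 2 and 3 and 1318, 1721 and 816 bp in KO replicates 1, 2 and 3. Every WT library lay above every KO library. The means were 2725 ± 601 bp for WT and 1285 ± 453 bp for KO (SD, n = 3 each), 1440 bp apart (exact permutation p = 0.1). Such a separation was met at 50.8% of the 14422 promoters covered in any library, where the median difference was 965 bp. The reverse, every KO library above every WT library, was met at 0.111% of them and at none of the 10 genes. WT replicate 3 exceeded the highest KO library by 373 bp, and 7.96% of promoters had a lead at least as large. The percentiles among covered promoters of each library were 33.7, 52.6 and 58.9 in WT and 12.2, 47.6 and 5.04 in KO. By this rank the genotypes overlapped, with a mean difference of 26.8 (exact permutation p = 0.2).

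The KO peaks at CXCL3 were shorter on average on both sides of the 5′ end, but without overlap only on the side of the gene body. Downstream of the 5′ end the peak reached 1459, 1692 and 1026 bp in the WT libraries and 219, 776 and 178 bp in the KO libraries. The genotypes did not overlap in this reach, which differed by 1001 bp (exact permutation p = 0.1), against a median of 587 bp over the 12288 promoters with a peak over the 5′ end in all 6 libraries. Such a separation of the downstream reach held at 52.8% of those promoters. Upstream the peak reached 1330, 1598 and 1067 bp in WT and 1098, 944 and 637 bp in KO, where WT replicate 3 fell below KO replicate 1 (difference 439 bp, exact permutation p = 0.2). The upstream reach separated at 44.8% of those promoters, where its median difference was 399 bp.

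In fold enrichment within its list the CXCL3 peak of the KO libraries did not rank lower. Its fold enrichment was above 54.7%, 56.5% and 79.6% of the peaks in the WT lists and above 91.2%, 99.2% and 99.4% of those in the KO lists. Its −log10 q was 96.4, 103 and 84 in WT and 84.2, 87.5 and 84.3 in KO. These values were above 62.1%, 61% and 90.6% of the WT lists and 82.2%, 92.2% and 88.4% of the KO lists. By this rank WT replicate 3 lay above KO replicates 1 and 3. The deposited enrichment is a mean over the whole peak and the KO peaks were narrower, and the part of width in these ranks was not tested. The percentiles describe each list and do not compare signal between libraries.

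**Figure D3:**
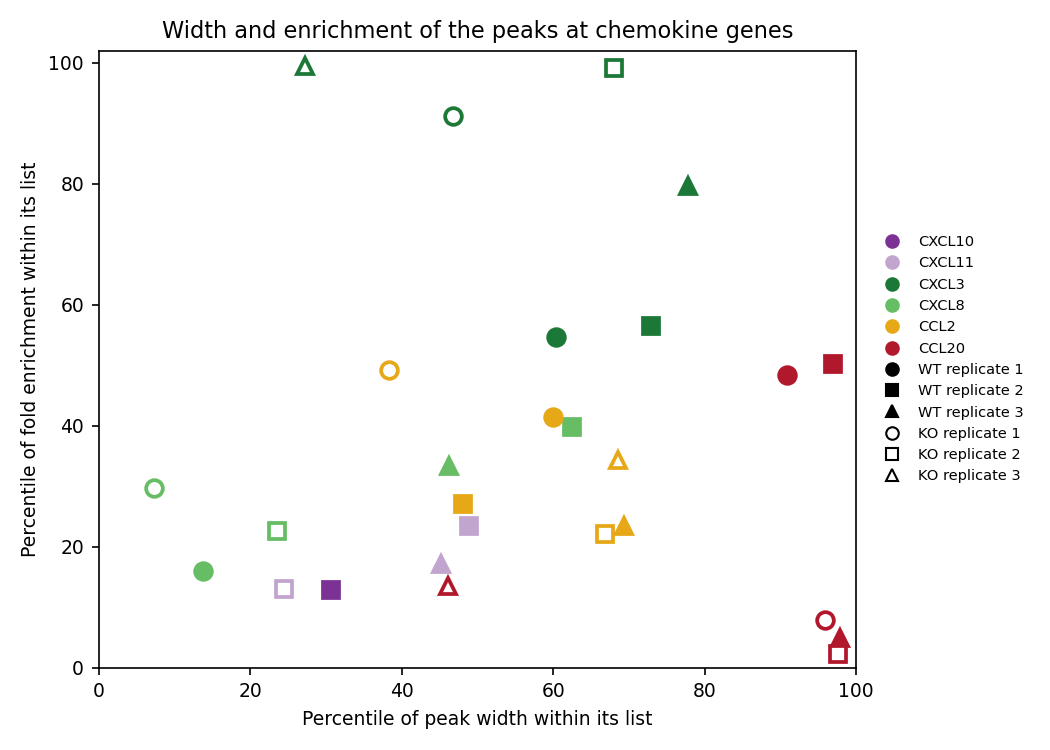
Percentile of peak width (horizontal axis) against percentile of fold enrichment (vertical axis), each within the peak's own list, for every peak at the 6 marked chemokine genes, with filled symbols for WT and open symbols for KO libraries. CXCL3 takes the top of the plot with its KO peaks above at least 91.2% of their lists in enrichment, CCL20 takes the right-hand edge apart from its peak of KO replicate 3 at a width percentile of 46.1, and the peaks of CXCL10 and CXCL11 sit at 23.4% or lower in enrichment.

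CXCL1 (ENSG00000163739, chr4:73869393-73871308, plus strand) and CXCL2 (ENSG00000081041, chr4:74097040-74099196, minus strand) encode the nearest relatives of CXCL3. Both had 0 bp in all 6 libraries. The nearest peak to CXCL1 was 126496 to 169118 bp away, and the nearest to CXCL2 was 34850 to 58336 bp away. All 3 genes carry the same κB string, GGGAATTTCCC, 79 or 78 bases upstream of the 5′ end, as the printed sequences show. The same string thus stood at 1 marked and 2 unmarked promoters. Reads that mapped to several places were removed by the authors, and the part of this in the calls was not tested. Of the 5852 stretches of 150 bases within 3 kb of each 5′ end, none of those at CXCL1 and 29 (0.496%) of those at CXCL2 and at CXCL3 recurred in another of these windows. Shorter or imperfect repeats were not counted.

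CXCL8 (ENSG00000169429, chr4:73740519-73743716, plus strand), the interleukin 8 gene, stands at the other end of the same cluster. Its covered length was 594, 2865 and 1408 bp in WT replicates 1, 2 and 3 and 377, 797 and 0 bp in KO replicates 1, 2 and 3. WT replicate 1 fell below KO replicate 2, so the genotypes overlapped, with a WT mean of 1622 ± 1151 bp and a KO mean of 391 ± 399 bp (SD, n = 3 each, difference 1231 bp, exact permutation p = 0.2). Without WT replicate 2 the difference was 610 bp. The 5 peaks all held the 5′ end. Outside WT replicate 2, where the −log10 q was 26.5, they were weak, at 3.67 and 4.47 in the other WT lists and 4.05 and 3.15 in KO replicates 1 and 2. WT replicate 3 led the highest KO library by 611 bp, a lead that 4.19% of promoters reached. From 20 kb before CXCL8 to 20 kb after CXCL2, the cluster held 10 promoters, among them those of CXCL5, CXCL6, PF4 and PPBP. Only CXCL8 and CXCL3 were marked, and no list held a peak elsewhere in these 398626 bp.

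CCL2 (ENSG00000108691, chr17:34255274-34257208, plus strand), which encodes the main monocyte attractant, had a peak over its 5′ end in all 6 libraries. Its covered length was 2773, 2255 and 1886 bp in WT replicates 1, 2 and 3 and 1128, 1701 and 1627 bp in KO replicates 1, 2 and 3. The WT libraries lay above the KO libraries, with means of 2305 ± 446 bp and 1485 ± 312 bp (SD, n = 3 each), a gap of 819 bp (exact permutation p = 0.1). That difference turned over once each length was ranked among all covered promoters of its own library. The percentiles were 33.1, 16.8 and 45.2 in WT and 6.87, 46.0 and 48.0 in KO, with a mean difference of −1.92 (exact permutation p = 0.8). WT replicate 3 exceeded KO replicate 2 by 185 bp, and 16.6% of promoters had a lead at least as large. Neither the upstream nor the downstream reach of the peak separated the genotypes (exact permutation p = 0.2 for each). The −log10 q was 34.6, 15.1 and 4.14 in WT and 9.16, 4.51 and 12.7 in KO, a range over which the genotypes overlapped.

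CCL2 was alone in its neighbourhood. From 20 kb before CCL2 to 20 kb after CCL1 the 147948 bp hold the promoters of CCL7, CCL11, CCL8, CCL13 and CCL1 as well, and each of the 6 lists held 1 peak there, that of CCL2. CCL5 (ENSG00000271503, chr17:35871491-35880793, minus strand), a T cell and monocyte attractant, had 0 bp in all 6 libraries. Its nearest peak in every list was at RDM1, 49008 to 49832 bp away. A lncRNA annotated on the plus strand spans the CCL5 5′ end.

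CCL20 (ENSG00000115009, chr2:227805739-227817564, plus strand), the ligand of CCR6, had its mark mostly downstream of the main 5′ end, as had CXCL10 and CXCL11. The covered length was 3258, 3476 and 2068 bp in WT replicates 1, 2 and 3 and 1601, 1866 and 57 bp in KO replicates 1, 2 and 3. No KO library reached a WT library. WT averaged 2934 ± 758 bp and KO 1175 ± 977 bp (SD, n = 3 each), which is 1759 bp less (exact permutation p = 0.1). The lead of WT replicate 3 over the highest KO library was 202 bp, which 15.3% of promoters reached. The percentiles among covered promoters of each library were 49.4, 59.5 and 57.2 in WT and 27.4, 57.5 and 0.0655 in KO. By this rank KO replicate 2 lay above WT replicates 1 and 3 (mean difference 27.0, exact permutation p = 0.3). The 57 bp of KO replicate 3 is where the 3 kb window meets a peak of 1197 bp that lies mostly beyond it.

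Relative to the main 5′ end at 227813842, the peaks ran from −257 to 4621, from −475 to 5507 and from 933 to 4475 bp in the WT libraries. In the KO libraries they ran from 1400 to 4415, from 1135 to 4282 and from 2944 to 4140 bp. All 6 peaks passed the end of the transcript, at 3714 bp, and only those of WT replicates 1 and 2 held the 5′ end. Over all promoters with a peak in a library, 91.6 to 95.1% had one over the 5′ end. No other annotated gene lies under these peaks. In 5 lists the CCL20 peak was wider than 90.8 to 97.9% of the peaks, and in KO replicate 3 wider than 46.1%. In enrichment it was middling in WT replicates 1 and 2 (percentiles 48.4 and 50.2) and low in the other 4 lists (2.24 to 13.5). In enrichment at CCL20, WT replicate 3 (4.94) thus lay among the KO lists and not beside the other WT lists.

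CCL20 has further annotated 5′ ends. One, 1527 bp downstream of the main one, lay under the peak in every library except KO replicate 3. Another, 8103 bp upstream at 227805739, starts a longer transcript and lay under a separate peak in all 6 libraries. That peak was 1225, 1243 and 1009 bp wide in WT replicates 1, 2 and 3 and 1012, 1202 and 1083 bp wide in KO replicates 1, 2 and 3. The genotypes overlapped, WT averaging 1159 ± 130 bp and KO 1099 ± 96.0 bp (SD, n = 3 each), 60 bp apart (exact permutation p = 0.6). The fold enrichment of this peak was 3.19 to 3.89 and its −log10 q 2.92 to 4.77. The difference seen around the main 5′ end of CCL20 was thus not met at its upstream one.

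With WT replicate 3 as the single WT library, 5 of the 5 members covered in those 4 lists (CXCL11, CXCL3, CXCL8, CCL2 and CCL20) stood above every KO library, against 54.4% of 14281 promoters. The mean KO length was exceeded by 809 bp at CXCL3, 401 bp at CCL2 and 893 bp at CCL20, compared with 1440, 819 and 1759 bp when all 3 WT libraries were used. At CXCL11 and CXCL8 it was exceeded by 1108 and 1017 bp, compared with 952 and 1231 bp. This comparison has 1 WT clone and carries no test. The side of the 5′ end on which the peaks lay varied between members. The share of the covered length that lay downstream was 100% at CXCL10, a median over libraries of 94.4% at CXCL11 and 100% at CCL20, 76.5% at CXCL8, 76.2% at CCL2 and 47.1% at CXCL3. The median over all promoters was 60.1 to 64.5% per library.

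The members also differed in CpG content, a feature of promoter sequence that is known to go with H3K4me3. The ratio of observed to expected CpG within 500 bp of the 5′ end was 0.0312 at CXCL9, 0.123 at CXCL10, 0.096 at CXCL11, 0.169 at CCL20 and 0.301 at CXCL8. It was 0.621 at CXCL1, 0.765 at CXCL2 and 0.733 at CXCL3. Among the 2130 promoters with a ratio under 0.2, 7.37% had a peak in all 6 libraries, 8.97% in 1 to 5 and 83.7% in none. CXCL9 was with the many, CXCL10 and CXCL11 with the few marked in some libraries, and CCL20 with those marked in all. At CCL20, however, only WT replicates 1 and 2 had a peak over that 5′ end, and with a window of 1 kb no KO library was covered. Among the 6550 promoters between 0.6 and 0.8, 85.5% were marked in all 6 libraries and 11.1% in none, and CXCL1 and CXCL2 were in the latter group. CXCL8 was 1 of the 11.5% of promoters between 0.2 and 0.4 that were marked in 1 to 5 libraries.

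**Figure D4:**
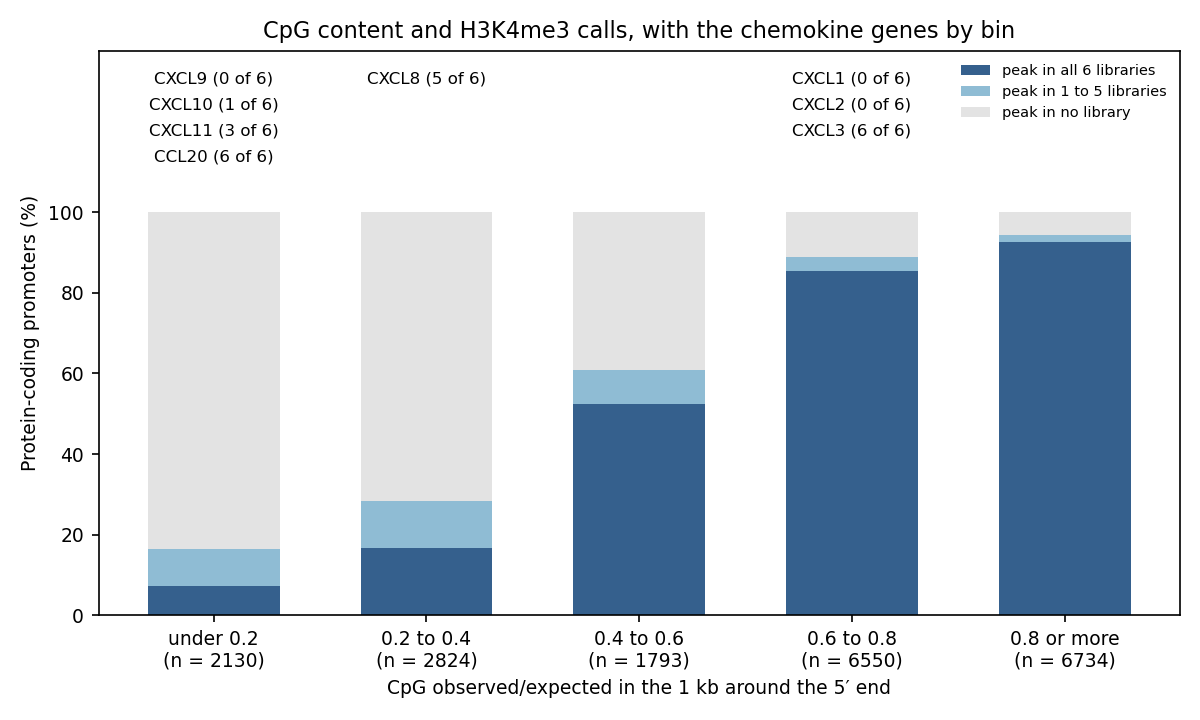
Share of protein-coding promoters (vertical axis, %) with an H3K4me3 peak in all 6, in 1 to 5 or in no library, by the ratio of observed to expected CpG (horizontal axis), with the chemokine genes of each bin and their number of marked libraries above the bars. Peaks in all 6 libraries go from 7.37% of promoters in the lowest bin to 92.5% in the highest, and CCL20 among the lowest and CXCL1 and CXCL2 in the fourth bin stand on the less common side. Calls use the 3 kb window, and at CCL20 only 2 libraries had a peak over the main 5′ end.

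The same motifs were set beside the calls at all promoters. Of the 72 promoters that hold GGAATTTCC on either strand, 65.3% had a peak in all 6 libraries and 30.6% had none, against 66.9% and 28.0% of all promoters. For the 2267 promoters with the κB consensus the shares were 73.2% and 20.9%. For the ISRE core they were 57.5% and 36.2%, and for the GAS element 56.9% and 38.3%. The TATA box TATAAA, which CXCL11, CXCL8 and CCL20 carry 42, 31 and 29 bases upstream of their 5′ ends and CXCL9 at −191, stood in 9.34% of promoters. Of these 34.5% had a peak in all 6 libraries and 58.3% had none. CCL20 also held a match to the κB consensus at −79.

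Most other chemokine ligand and receptor genes had no peak. Of 34 further ligand genes, 5 had a peak in any library, and of 22 receptor genes, 3, against 72.0% of all promoters. CXCL14, CXCL16 and CX3CL1 had a peak over the 5′ end in all 6 libraries. CX3CL1, which encodes the membrane-bound chemokine fractalkine, had 3778, 4167 and 2160 bp in WT and 2160, 1959 and 1954 bp in KO, where WT replicate 3 and KO replicate 1 were equal. CXCL16, another membrane-bound ligand, had 2460, 2920 and 1753 bp in WT and 1613, 1371 and 1217 bp in KO, without overlap (exact permutation p = 0.1), and its window also holds the promoter of ZMYND15. CXCL12, the ligand of CXCR4, had a peak in all but WT replicate 2, and CCL27 had peaks in all 6 libraries that did not reach its 5′ end.

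Among the receptors, ACKR3, a scavenging receptor for CXCL11 and CXCL12, had a peak over its 5′ end in all 6 libraries. CCR1 had one in WT replicate 1 alone. The window of CCR10 was covered in all 6 libraries, but it also holds the promoter of CNTNAP1 and a peak reached the CCR10 5′ end in 1 library. Beside ACKR3 and CCR1, which bind CXCL11 and CCL5, some receptors of members were unmarked. CXCR3, CXCR2, CCR2 and CCR6, which leukocytes carry, had no peak in any list.

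**Figure D5:**
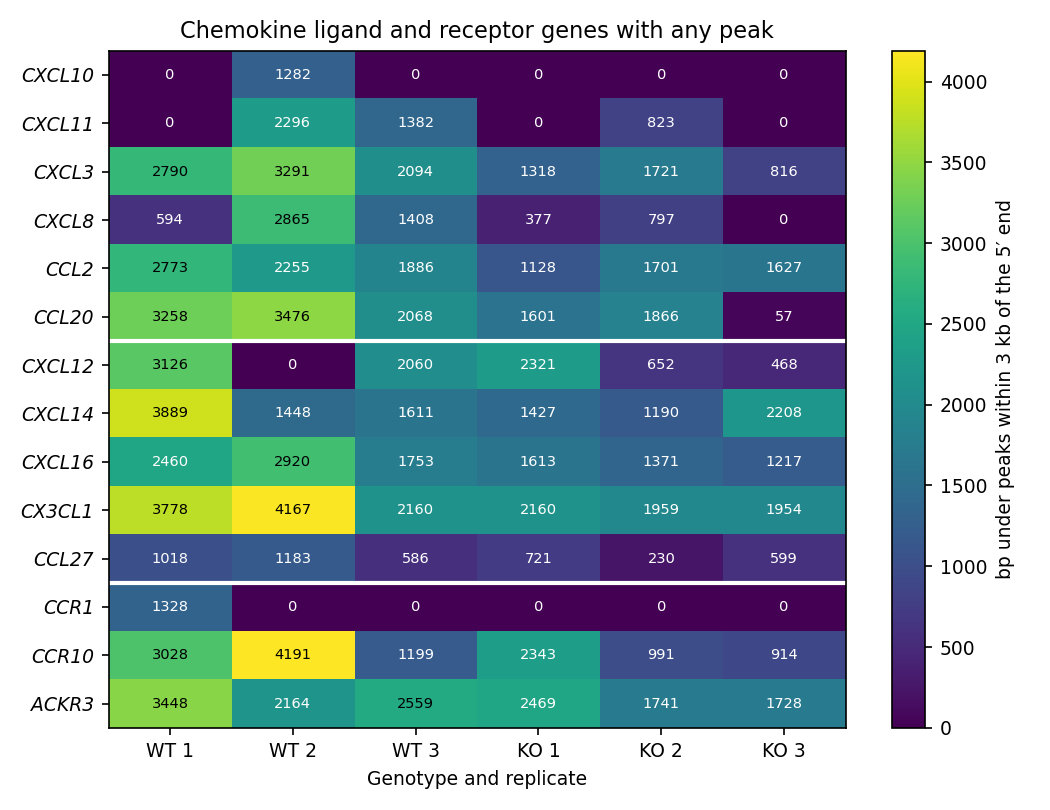
H3K4me3 covered length in bp within 3 kb of the 5′ end (colour and number) in the 3 WT and 3 KO libraries (horizontal axis) for every chemokine ligand and receptor gene with a peak in at least 1 library (vertical axis: the 6 marked members, 5 further ligands, 3 receptors, divided by white lines). CXCL10 and CCR1 are marked in a single library each, while CX3CL1 is at 1954 bp or more in all 6.

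The genes that carry the signals to these promoters were marked throughout. All 15 genes of the NF-κB pathway list and all 9 of the IFNγ signalling list had a peak in all 6 libraries, against 66.9% of all promoters. Of the genes in these lists, 8 and 4 separated the genotypes with WT above KO and none the other way, beside 50.8% of covered promoters. Their median differences were 974 and 1206 bp. IRF1, a transcription factor that IFNγ induces, had 4223, 4491 and 3046 bp in WT and 3601, 3002 and 2975 bp in KO, and the genotypes overlapped (exact permutation p = 0.2). RELA, which encodes the p65 subunit of NF-κB, had 4558, 4154 and 2430 bp in WT and 2376, 2089 and 2090 bp in KO, without overlap (exact permutation p = 0.1).

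The promoters whose covered lengths over the 6 libraries came nearest to those of a member were found by the smallest summed absolute difference. For CXCL10 they were LCP1, SBK3 and EVI2B, at 116, 355 and 425 bp in sum, each covered in WT replicate 2 alone. For CXCL11 they were HKDC1, CXCL8 and C3, at 1413, 1592 and 1858 bp. CXCL8, the second nearest of all promoters to CXCL11, is itself a member. For CCL20 they were PDPK1, NTPCR and CXCL3, at 1777, 1835 and 1866 bp. These distances describe 6 libraries of which WT replicates 1 and 2 had wider peaks throughout.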

How the data were processed

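The samples were H3K4me3 ChIP-seq libraries of 6 IFNγ-treated U2OS clones, 3 of each genotype, and the labels gave each sample's genotype and replicate number. Per the submitters' processing notes and the study's methods, the authors used Trimmomatic for trimming, Bowtie2 2.3.5.1 for alignment to GRCh38 and, after dropping reads that were unmapped, multimapping or duplicates, MACS2 2.1.1.2 in paired-end broad mode on each library. Whether an input was given to the caller is not given in the sources used here. The deposited lists hold a display score, which was not used, the fold enrichment ratio over background, and −log10 values of p and q, each averaged by the authors' caller over a broad peak. They were used to filter and rank peaks within a list. The lists carry no counts, so depth is unknown and no counting interval was computed.

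Peaks outside chromosomes 1 to 22, X and Y were left out. Positions are 1-based on GRCh38 (hg38). Promoters were the 5′ ends of 20033 protein-coding genes of GENCODE release 44, by the MANE Select transcript for 19061 genes and all 10 members. A promoter counted as marked where at least 1 bp of a peak fell in its 3 kb window. Covered lengths were compared by an exact permutation test (two-sided, 20 assignments of 6 libraries), and separation of the genotypes was counted over all promoters with the same code, which was tested on simulated data. No p was adjusted over the members and no test was made on counts of members. The analysis ran in Python 3.11.15 with numpy 2.4.6, Biopython 1.88 (alignments) and matplotlib 3.10.9.

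The members and lists were chosen with earlier results of these data known. All 10 members are named. From the lists of other ligands, receptors, NF-κB pathway and IFNγ signalling genes, those with a peak may be named and at most 4 of each get values (some are not reported here singly, while the counts include them), and for CXCL10, CXCL11 and CCL20 the 3 nearest promoters are named. The receptors without a peak, the reach of peaks and the upstream peak at CCL20 were singled out after their values were seen. The alternatives were −log10 q of at least 3, fold enrichment of at least 4, lists cut to the 21712 peaks of the shortest, windows of 1 and 5 kb, the 5′ ends of all transcripts, an overlap of at least 500 bp, percentiles within a library, WT replicate 3 alone, a replicate block and leaving out each library. Any 2 lists had at most 2 peaks in common base for base.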

Additional observations from a re-analysis of the deposited data

How the results depend on the processing

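Over the alternatives, the covered-length differences of the members kept their direction except at CCL2 and CXCL10. At CCL2, ranking within each library gave −1.92 percentile points (exact permutation p = 0.8). At CXCL10 the difference fell to 0 with fold enrichment of at least 4, without WT replicate 2 and with WT replicate 3 alone. WT replicate 3 alone lowered the difference to 809 bp at CXCL3, 401 bp at CCL2 and 893 bp at CCL20. A window of 1 kb raised the difference in marked members from 1 to 2, since KO replicates then marked 3, 4 and 2 genes. CXCL3, CCL2 and CCL20 separated the genotypes at the other settings of threshold, window and transcript, whereas with fold enrichment of at least 4 only CXCL3 did, and by percentile none did. The cause was not tested. Over the alternatives the difference in marked members lay between 0.5 and 2 for all 10 genes. For the trio it lay between 0.167 and 1.17, and for the NF-κB-driven genes between 0 and 0.667. With fold enrichment of at least 4, WT libraries marked 3, 5 and 1 genes and KO libraries 2, 1 and 1. The covered-length difference was 749 bp at CXCL3 with a window of 1 kb. At CCL2 it was 1300 bp with fold enrichment of at least 4 (exact permutation p = 0.4). The lengths there were 2773, 2255 and 0 bp in WT and 1128, 0 and 0 bp in KO, so the genotypes overlapped. The spread of the libraries is wide at CXCL11 and CXCL8. The 4 genes with no peak were at 0 throughout and could not move.

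Between same-numbered WT and KO libraries the deviations had a Pearson r of −0.00952, 0.0171 and 0.0932 over 14422 promoters. For differently numbered ones r lay between −0.118 and 0.0787. These values do not settle whether the numbers pair the clones. With a replicate block the exact permutation p was 0.25 at CXCL3, CXCL8, CCL2 and CCL20, the smallest that it can give, 0.5 at CXCL11 and 1 at CXCL10, and the differences in marked members stayed at 1 for all 10 genes, 0.667 for the trio and 0.333 for the NF-κB-driven genes. With 1 library left out the smallest possible p is 0.1. Depth is unknown, so a missing peak may be a peak below the threshold.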
